A study of Mus musculus with 24 samples.

Results

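The genes described here are 9 ATP-binding cassette (ABC) transporters that export drugs from cells, picked by symbol from the 25239 genes of the expression table: *Abcb1a*, *Abcb1b*, *Abcb4*, *Abcg2*, *Abcc1*, *Abcc2*, *Abcc3*, *Abcc4* and *Abcc5*. RNA was sequenced from 6 mouse small cell lung cancer (SCLC) lines, each grown from a tumour of an RP(XTR)R2 mouse, in which Cre from an adenovirus with a CMV promoter deleted *Rb1* flox/flox and *Rbl2* flox/flox and switched off *Trp53* XTR/XTR. All 6 lines also carried *Rosa26* FlpO-ER, so 4-hydroxytamoxifen (4-OHT) activated the FlpO recombinase and turned the silenced *Trp53* TR allele into the expressed *Trp53* R allele. The study classed lines 4711-1, 4711-18 and 4716-11 as Type D, which lose viability after p53 restoration, and lines 4711-11, 4716-10 and 4716-14 as Type V, which stay viable. Each line was sequenced once at 72 h in each of 4 conditions: Control (vehicle), Control with cyclosporin A (CsA), Restored (4-OHT) and Restored with CsA, which gave 24 libraries in 8 groups of 3 lines. Because every Restored library received 4-OHT and no other library did, the effects of the drug and of p53 cannot be told apart.

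ABC exporters use ATP hydrolysis to move substrates out through the plasma membrane. *Abcb1a* and *Abcb1b* encode the mouse forms of P-glycoprotein, *Abcg2* encodes the breast cancer resistance protein, and the *Abcc* genes encode multidrug resistance-associated proteins that carry glutathione, glucuronide and other organic anion conjugates. CsA is a substrate and inhibitor of P-glycoprotein and inhibits several of the others, and in this study it was used as a cyclophilin inhibitor, so the RNA of its exporters was compared across types, p53 states and CsA.

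The deposited values are TPM, a share of all transcripts scaled for transcript length, and sum to 1000000 in every library, so the read depth behind them is unknown. Between 11853 and 12651 genes per library reached 1 TPM. *Trp53* was at 10.5 to 15.3 TPM in the 12 libraries without restoration and at 181 to 253 TPM in the 12 with it, and *Cdkn1a*, a p53 target that halts the cell cycle, was at 37.5 to 145 and 1068 to 2540 TPM. The neuroendocrine markers *Chga* and *Neurod1*, usual in SCLC, were at 0 or under 0.1 TPM in all 24 libraries, while *Ncam1* was at 4.46 to 27.3 TPM in every library, *Uchl1* reached 40.9 TPM and *Insm1* 49.6 TPM in Type V, and the 12 markers of that list summed to 5.71 to 28.0 TPM in Type D and 16.5 to 85.9 TPM in Type V libraries. Endothelial markers, and immune markers, summed to under 2 TPM in every library.

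*Abcb1a*, *Abcb1b* and *Abcb4* lie in a row on the plus strand of chromosome 5, at chr5:8660077-8748575, chr5:8798147-8866315 and chr5:8893717-8959231 of GRCm38 (GENCODE M21). The promoters of these neighbours are shown because *Abcb1b* was the only gene of the 3 called with restoration in both types. Each line gives the 250 bases before the RefSeq start (GRCm38.p6, plus strand), at chr5:8797897-8798146 for *Abcb1b*, chr5:8893471-8893720 for *Abcb4* and chr5:8566841-8567090 for *Abcb1a*. Capitals mark the CCAAT box, which reads ATTGG on the other strand, the GC box GGGCGG, and any match to the p53 consensus decamer.
Abcb1b: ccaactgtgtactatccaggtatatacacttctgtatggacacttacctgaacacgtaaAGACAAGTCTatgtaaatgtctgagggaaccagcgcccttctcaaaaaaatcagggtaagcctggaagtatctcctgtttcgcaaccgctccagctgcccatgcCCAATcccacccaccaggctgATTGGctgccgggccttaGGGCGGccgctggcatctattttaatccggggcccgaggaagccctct
Abcb4: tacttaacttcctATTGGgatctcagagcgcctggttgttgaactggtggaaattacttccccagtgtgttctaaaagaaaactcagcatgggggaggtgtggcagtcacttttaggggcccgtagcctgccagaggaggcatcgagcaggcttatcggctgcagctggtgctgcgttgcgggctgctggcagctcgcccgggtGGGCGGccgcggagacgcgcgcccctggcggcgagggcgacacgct
Abcb1a: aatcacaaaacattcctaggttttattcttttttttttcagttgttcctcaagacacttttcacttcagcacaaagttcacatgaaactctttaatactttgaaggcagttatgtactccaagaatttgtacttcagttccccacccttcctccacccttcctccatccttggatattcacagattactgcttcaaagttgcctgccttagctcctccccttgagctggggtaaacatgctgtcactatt
The *Abcb1b* window held CCAAT boxes starting at -87 and, reversed, at -66, a GC box at -48 and a p53 decamer match at -191, counted from the start site, with no overlap among them. The *Abcb4* window held a reversed CCAAT box at -237 and a GC box at -46, and the *Abcb1a* window held none of these motifs. The RefSeq start of *Abcb1a* lies far upstream of the GENCODE start given above, and which of them these cells use is not known from the values. Among all 32851 mouse promoter windows of this length, 33.8% held a CCAAT box, 32.7% a GC box and 7.13% a p53 decamer match on either strand. RefSeq windows were at hand for 7 of the 9 genes, 10 windows in all, of which 2 (*Abcb1b* and *Abcc2*) held a p53 decamer match and none held the AP-1 motif TGANTCA, found in 6.75% of all windows. The xenobiotic response core GCGTG (28.2% of all windows) was in 2 of the 10 and the antioxidant response core TGACNNNGC (10.2%) was in 3, all counted on both strands. A match of letters does not show that a factor binds.

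The levels of all 9 transporters in each line and condition are plotted first. *Abcc2* was at 0 to 0.357 TPM throughout and was at 0 in 6 libraries, so it did not pass the filter of 1 TPM in 3 libraries, and the other 8 were tested among 14104 genes. *Abcb1a* reached 1 TPM in 22 of 24 libraries, and the remaining 7 tested genes reached it in all 24.

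**Figure D1:**
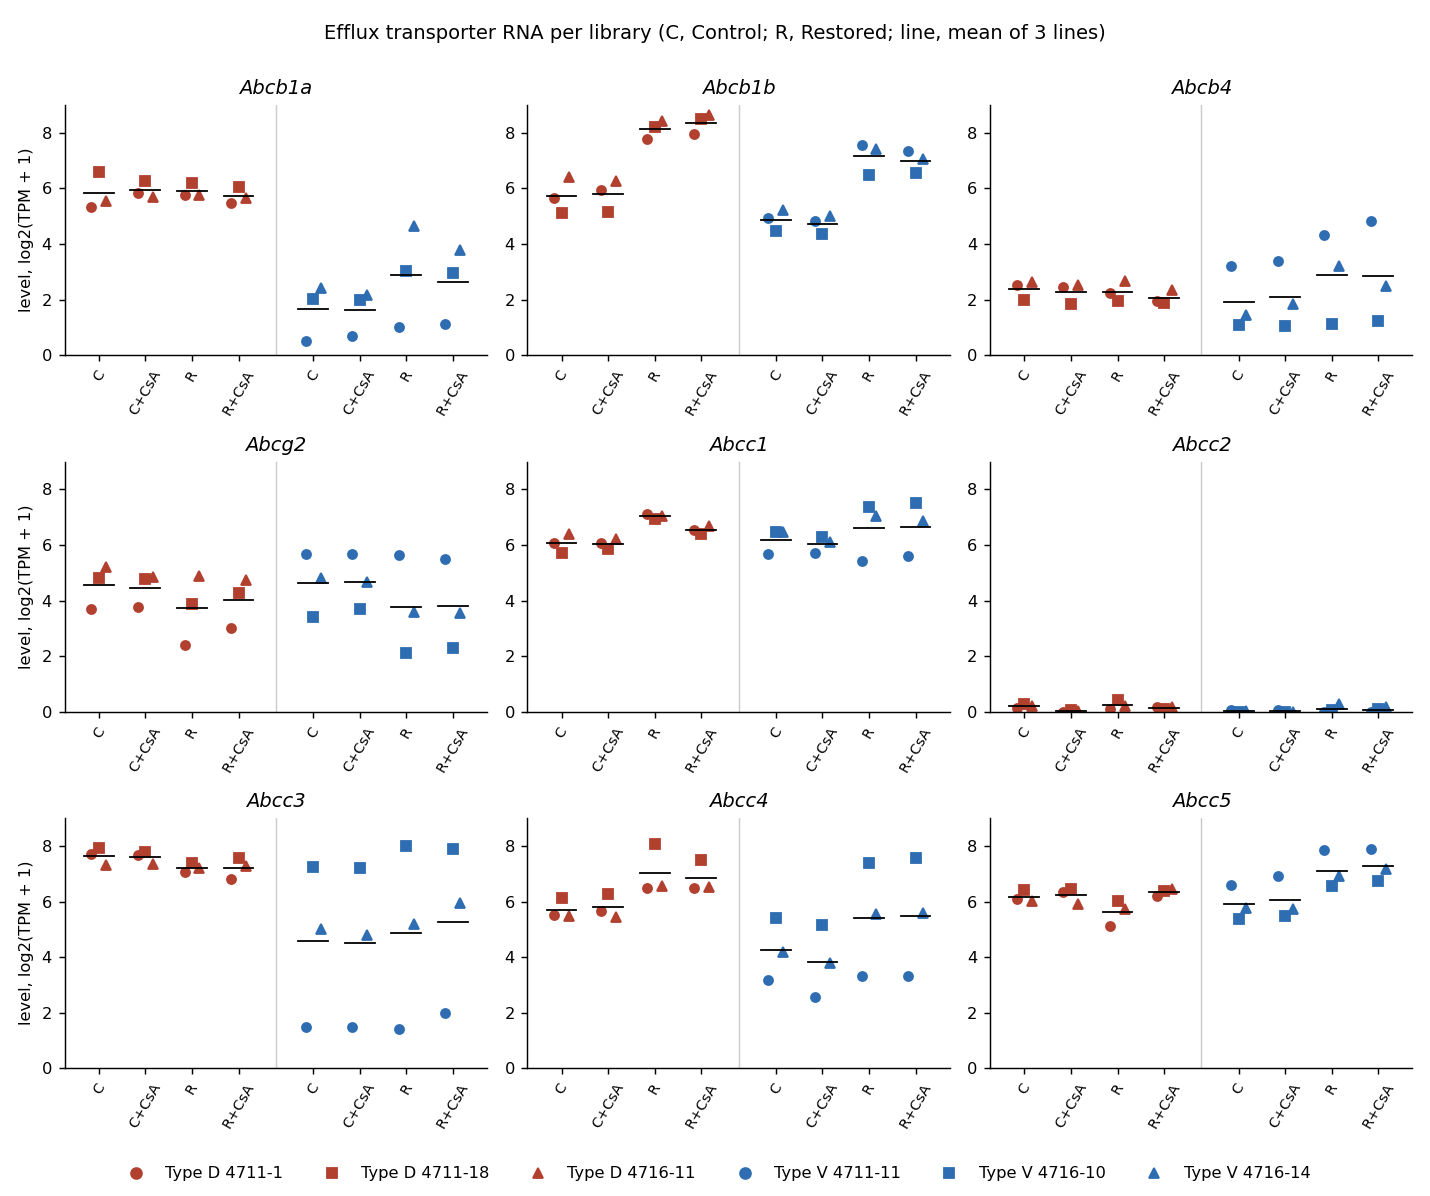
Level of each of the 9 transporters in log2(TPM + 1) (vertical axis) in Control (C), Control + CsA, Restored (R) and Restored + CsA, with Type D lines in red on the left and Type V lines in blue on the right of each panel. Each symbol is 1 library and each bar the mean of 3 lines; *Abcb1a* was higher in every Type D library than in any Type V library, *Abcb1b* stepped up with restoration in all 6 lines, and *Abcc2* stayed near 0.

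*Abcb1a*, a P-glycoprotein gene, separated the types in every condition. In Control cells it was at 39.3, 94.9 and 45.4 TPM in Type D lines 4711-1, 4711-18 and 4716-11, and at 0.432, 3.03 and 4.37 TPM in Type V lines 4711-11, 4716-10 and 4716-14. The group means were 59.9 ± 30.5 and 2.61 ± 2.0 TPM (SD, n = 3), and the lowest Type D library lay well above the highest Type V library. On the log2(TPM + 1) scale Type D exceeded Type V by 4.17 (SE 0.74, limma adjusted p = 0.000818), and *Abcb1a* was the only 1 of the 8 tested members called, where 8.83% of all genes tested were called. A call needed both an adjusted p under 0.05 and a difference of 1 or more in either direction. As these are bulk RNA values, fewer cells that express a gene and less RNA per cell cannot be told apart. With CsA alone the lines stood at 55.5, 76.8 and 51.1 TPM in Type D and at 0.614, 2.99 and 3.50 TPM in Type V, a difference of 4.32 (SE 0.74, limma adjusted p = 0.000565), again the only member called, beside 9.88% of all genes. The types did not overlap in either condition without p53. With the compared groups fitted alone *Abcb1a* was still called, at limma adjusted p = 0.0228 in Control and 0.011 in Control + CsA. There 4.47% and 4.6% of all genes were called. The smaller p-values above take their spread from all 24 libraries, which share lines and are not independent.

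After restoration *Abcb1a* was at 53.5, 71.5 and 52.6 TPM in Type D and at 1.02, 7.26 and 23.9 TPM in Type V, and with restoration and CsA at 42.9, 65.6 and 49.0 TPM against 1.16, 6.85 and 12.7 TPM. The groups still did not overlap, and the difference was 3.0 (SE 0.74, limma adjusted p = 0.0104) and 3.10 (SE 0.74, limma adjusted p = 0.00931). In each of these conditions 2 of 8 tested members were called, beside 9.44% and 7.82% of all genes. When the Restored groups were fitted alone the call was lost (adjusted p = 0.115), as it was without 4711-1 (0.0614) or 4716-11 (0.052). In Restored + CsA it was lost with those groups alone (adjusted p = 0.0523) and without 4711-1 (0.0523), 4711-18 (0.0505) or 4716-11 (0.0614). *Abcb1a* belongs to a Type D gene signature that the study drew from these libraries, so its direction here is not independent evidence. Summed epithelial markers differed between types in the same direction, at 4517 to 12069 TPM over the Type D libraries and 492 to 1801 TPM over the Type V libraries. In Type D the sum was carried by *Krt8* and *Krt18*, with Control means of 4368 and 3909 TPM. In Type V Control cells these were at 249 and 514 TPM, near *Cdh1* and *Krt7*. *Cdh1* had Control means of 740 TPM in Type D and 305 TPM in Type V, and *Krt7* of 250 and 257 TPM. *Epcam*, *Cldn7* and *Esrp1* reached at most 4.57, 0.465 and 0.555 TPM. In Type V the sum was lower after restoration, at 664 to 1801 TPM in Control and 492 to 899 TPM in Restored, where mean *Abcb1a* was higher (2.61 and 10.7 TPM). In Control cells 1 of 6 tested epithelial markers was called, *Krt18* (3.26). Summed mesenchymal markers differed between types the other way, at 3335 to 5900 TPM over the Type D and 6123 to 7972 TPM over the Type V libraries. The largest part was *Vim*, with similar Control means of 4155 TPM in Type D and 4400 TPM in Type V. *Fn1* had Control means of 361 and 1037 TPM, and *Sparc* of 332 and 1241 TPM. Of these markers 5 of 9 were called lower in Type D Control cells (55.6%, beside 8.83% of all genes), among them *Snai2* (-3.20) and *Sparc* (-1.96). Of 4 tested neuroendocrine markers *Uchl1* was called (-4.01). The part of these markers in the *Abcb1a* difference was not tested.

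**Figure D2:**
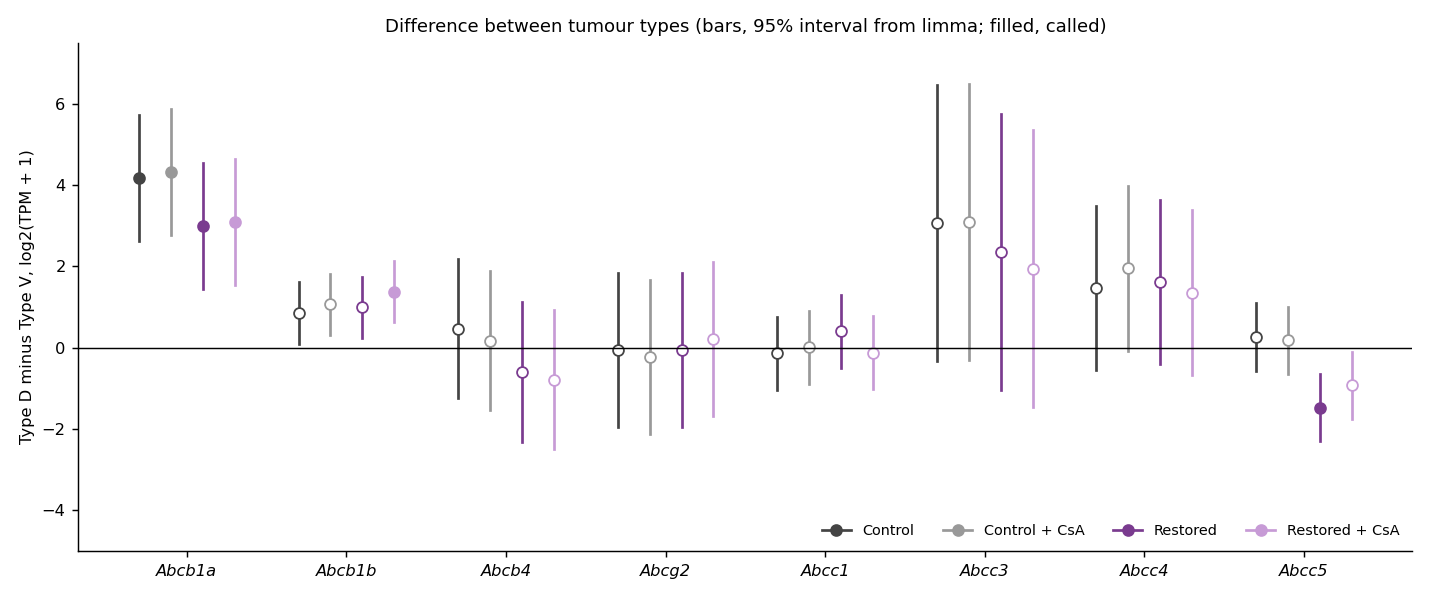
Difference Type D minus Type V in log2(TPM + 1) (vertical axis) for the 8 tested transporters in each of 4 conditions, with 95% intervals from limma. Filled points were called: *Abcb1a* in all 4 conditions, *Abcb1b* in Restored + CsA and *Abcc5*, in the other direction, in Restored.

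With restoration *Abcb1a* changed by 0.44, -0.40 and 0.21 in Type D lines 4711-1, 4711-18 and 4716-11 (mean 0.08, 95% interval -1.47 to 1.63, limma adjusted p = 0.995). This interval does not pair the lines and keeps the differences between them (SE 0.74, and 0.27 with the cell line as a block). In Type V *Abcb1a* was higher after restoration in all 3 lines, by 0.50, 1.03 and 2.21 in 4711-11, 4716-10 and 4716-14. The mean of 1.25 (0.77 without 4716-14) was not called without pairing the lines (adjusted p = 0.357) and was called when the cell line was a block (adjusted p = 0.00188). With CsA in both arms the Type V mean was 1.00 (adjusted p = 0.533, and 0.0094 with the block), while all 3 Type D lines were lower (mean -0.22, adjusted p = 0.956). The difference between the types in this response was -1.17 without CsA and -1.22 with it, and neither passed with the block (limma adjusted p = 0.0888 and 0.0817). *Abcb1a* and *Abcb1b* transcripts share 31-base words, 21.4% of those of *Abcb1a* and 24.7% of those of *Abcb1b*, so reads could be split between them. In Type V line 4711-11 *Abcb1a* moved by under 1 TPM while *Abcb1b* moved from 29.7 to 188 TPM, and the part of shared reads in the small *Abcb1a* values was not tested.

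*Abcb1b*, the second P-glycoprotein gene, rose with p53 restoration in both types and had the largest mean change of the 8 tested transporters in each. Within single lines the log2 change of *Abcc4* was slightly above it in 4716-10, and that of *Abcb1a* slightly above it in 4716-14. In Type D it went from 49.9 to 221 TPM in 4711-1, from 33.5 to 294 TPM in 4711-18 and from 83.9 to 345 TPM in 4716-11. The Type V values went from 29.7 to 188 TPM in 4711-11, from 21.3 to 87.6 TPM in 4716-10 and from 35.9 to 169 TPM in 4716-14. The Restored and Control libraries did not overlap in either type, and the ratio of TPM within a line ran from 4.11 (4716-11 and 4716-10) to 8.77 (4711-18).

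On the log2 scale the Type D rise of *Abcb1b* was 2.41 (SE 0.36, adjusted p = 0.000118 from limma), and the Type V rise was 2.27 (SE 0.36, adjusted p = 0.000326). It was the only 1 of the 8 tested members called in each type, where 6.93% (Type D) and 5.29% (Type V) of all genes were called. With CsA in both arms it was again the only one called, by 2.57 in Type D (SE 0.36, adjusted p = 7.61e-05, 5.41% of all genes called) and 2.27 in Type V (SE 0.36, adjusted p = 0.00032, 4.61%). The rise differed between types by 0.14 (95% interval -0.92 to 1.21) without CsA and by 0.31 (-0.76 to 1.37) with it. Both intervals leave the lines unpaired (SE 0.51, and 0.30 with the cell line as a block). The study placed *Abcb1b* in a gene module built on these libraries, so this rise is not independent of that choice. The paper describes the module as a set induced mainly in Type D and hardly in Type V. It also reports that CsA removed the induction of the set in Type D. *Abcb1b*, a single gene of that set, rose by 2.27 in Type V and by 2.57 in Type D with CsA.

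**Figure D3:**
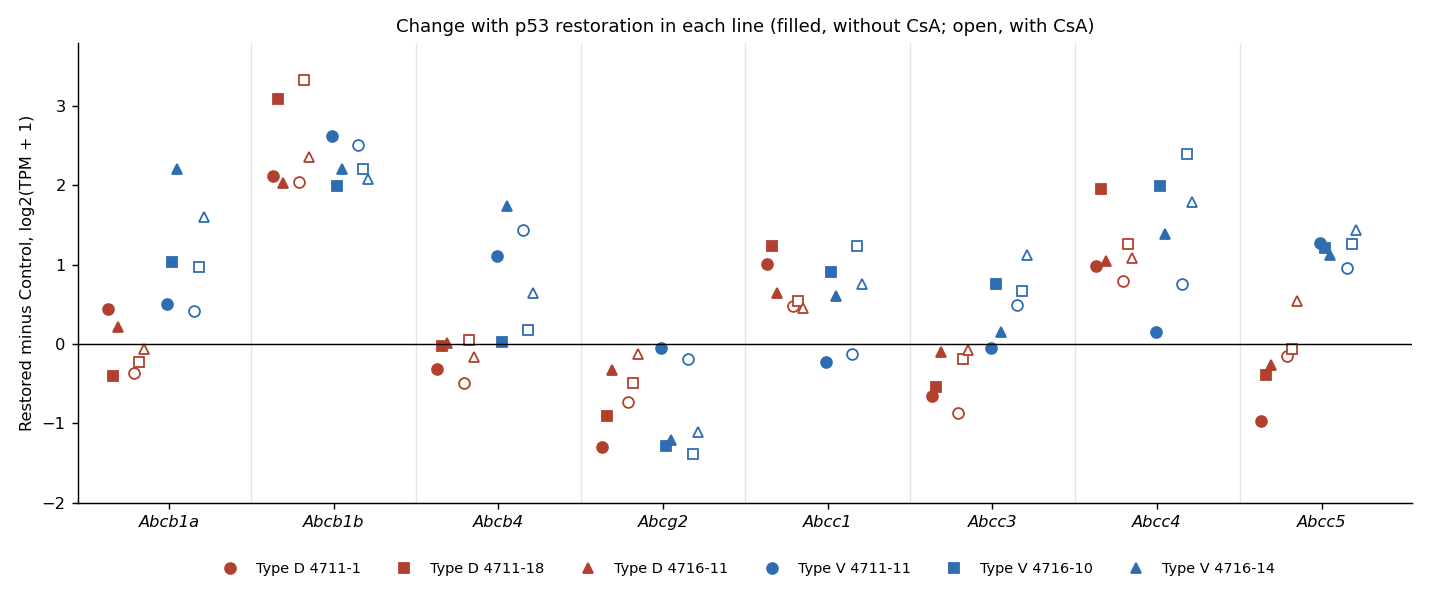
Change with p53 restoration in log2(TPM + 1) (vertical axis) in each line for the 8 tested transporters, filled without CsA and open with CsA, Type D in red and Type V in blue. *Abcb1b* lies between 1.99 and 3.33 in every line, *Abcc4* is above 0 and *Abcg2* below 0 in every line, and the red and blue points of *Abcc5* without CsA lie on opposite sides of 0.

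Type D cells also held more *Abcb1b* than Type V in the Restored groups, 286 ± 62.1 against 148 ± 53.3 TPM (SD, n = 3), and with CsA 335 ± 76.5 against 130 ± 34.5 TPM. In both conditions the types did not overlap. The log2 difference was called in Restored + CsA (1.37, SE 0.36, limma adjusted p = 0.017) and not in Restored (1.00, SE 0.36, adjusted p = 0.0696, and 0.66 without 4716-10), where it passed under median-ratio scaling (1.04, adjusted p = 0.0482). The call in Restored + CsA was lost without line 4716-11 (adjusted p = 0.0606) or 4716-14 (0.0597). In Control cells the types overlapped, at 33.5 to 83.9 TPM in Type D and 21.3 to 35.9 TPM in Type V (0.85, SE 0.36, adjusted p = 0.129). In Control + CsA they did not overlap, at 34.8 to 76.9 and 19.4 to 30.8 TPM (1.06, SE 0.36, adjusted p = 0.0523), which a pseudocount of 0.1, a minimum of 5 TPM, quantile normalization and median-ratio scaling brought to between 0.0247 and 0.0484, and leaving out 4711-18 to 0.0231.

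Ordered by mean, the *Abcb1b* groups ran from Type D Restored + CsA through Type D Restored, Type V Restored and Type V Restored + CsA to the 4 groups without restoration. Of the 7 neighbouring pairs in that order 2 were apart: Type D Restored lay above Type V Restored, and Type V Restored + CsA lay above Type D Control + CsA. For *Abcb1a* the only gap among 7 was between the lowest Type D group and Type V Restored.

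The make-up of the P-glycoprotein pair differed between states in Type D. *Abcb1a* was 35.1 to 73.9% of the summed *Abcb1a* and *Abcb1b* TPM in Type D Control lines and 13.3 to 19.6% in Type D Restored lines. The share in Type V was 1.44 to 12.4% in Control lines and 0.542 to 12.4% in Restored lines, lower in 2 lines and higher in 4716-14. The sum was 116 ± 22.9 TPM in Type D Control and 31.6 ± 8.07 TPM in Type V Control (SD, n = 3), and 346 ± 63.7 and 159 ± 55.5 TPM after restoration, with no overlap between types in either state.

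*Abcb4*, whose product exports phosphatidylcholine into bile and is the closest relative of the pair, was low. It lay at 2.61 to 5.34 TPM over the 12 Type D libraries. In Type V Control cells it was at 8.33, 1.14 and 1.75 TPM in 4711-11, 4716-10 and 4716-14, and at 19.0, 1.18 and 8.23 TPM after restoration. The change was 1.10 in 4711-11 and 1.74 in 4716-14 against 0.02 in 4716-10, and the Type V mean of 0.96 was not called with either fit (limma adjusted p = 0.576, and 0.00815 with the block but under the size threshold). The Type D lines changed by -0.31 to 0.01.

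**Figure D4:**
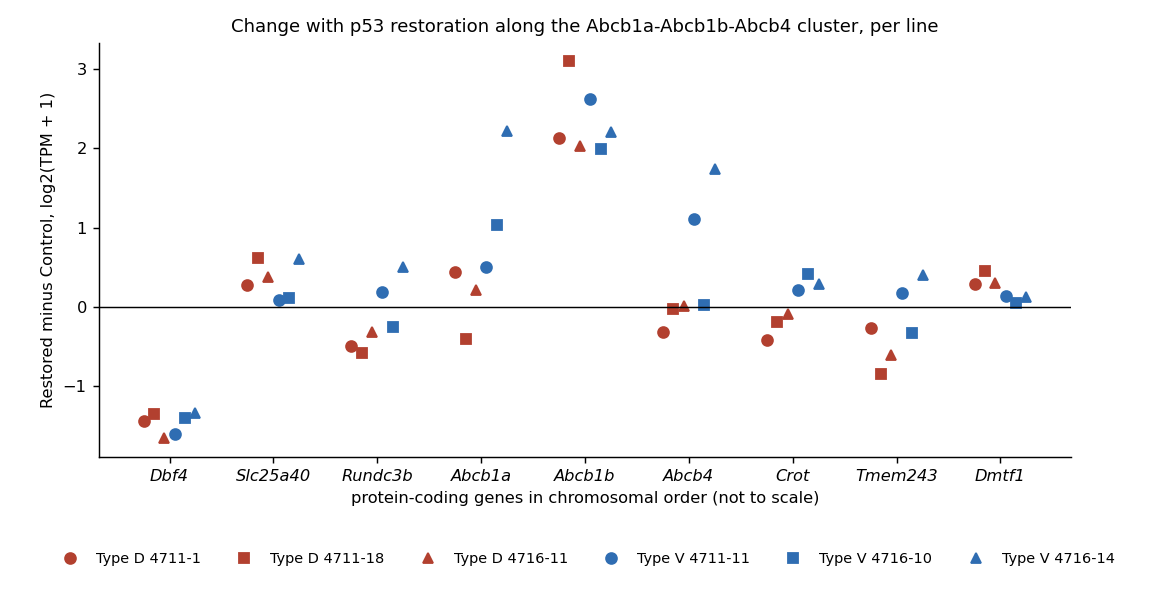
Change with p53 restoration without CsA in log2(TPM + 1) (vertical axis) for the protein-coding genes around the *Abcb1a*, *Abcb1b* and *Abcb4* cluster in chromosomal order (horizontal axis, not to scale), 1 symbol per line. *Abcb1b* is 1.99 or more in every line, while the flanking *Slc25a40*, *Rundc3b*, *Crot*, *Tmem243* and *Dmtf1* lie between -0.85 and 0.62 and *Dbf4* lies below 0.

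The genes flanking the cluster stayed below the *Abcb1b* change in every line. *Crot*, which encodes carnitine octanoyltransferase and follows *Abcb4*, changed by -0.42 to 0.41 across the 6 lines, and *Rundc3b*, ahead of *Abcb1a*, by -0.58 to 0.51. *Dbf4*, the activator of the replication kinase Cdc7, was lower in all 6 lines, by 1.34 to 1.65 on the log2 scale. These neighbours are given as a description with no test.

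*Abcg2*, the breast cancer resistance protein gene, was lower after restoration in all 6 lines, a pattern of 1 sign that 3 of the 8 tested members (*Abcb1b*, *Abcc4* and *Abcg2*) and 39.8% of all tested genes showed. It went from 12.0 to 4.27 TPM in 4711-1, from 26.9 to 13.9 TPM in 4711-18 and from 35.6 to 28.2 TPM in 4716-11. Among Type V lines it went from 50.2 to 48.5 TPM in 4711-11, from 9.64 to 3.35 TPM in 4716-10 and from 26.8 to 11.0 TPM in 4716-14. The lines differed more from each other than the conditions did, and the Restored and Control libraries overlapped in both types. The mean change was -0.84 for Type D (limma adjusted p = 0.646) and -0.85 for Type V (adjusted p = 0.681). With the line as a block the adjusted p was 0.0145 and 0.0151, with a size under the threshold of 1. All 6 lines were again lower with CsA in both arms, where 35.4% of all genes had 1 sign, by 0.45 on average in Type D and 0.89 in Type V.

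*Abcc5*, which encodes an exporter of cyclic nucleotides and folates, moved in opposite directions in the types. In Type V it went from 94.5 to 230 TPM in 4711-11, from 40.1 to 94.2 TPM in 4716-10 and from 53.9 to 119 TPM in 4716-14. In Type D it went from 67.2 to 33.8 TPM in 4711-1, from 84.5 to 64.3 TPM in 4711-18 and from 63.0 to 52.3 TPM in 4716-11. The Type V ratios lay close together, from 2.2 to 2.43, and the Type D ratios lay between 0.502 and 0.83.

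The Type V change of *Abcc5* was 1.20 (SE 0.40, limma adjusted p = 0.0611, not called) and was called with the line as a block (adjusted p = 1.59e-05). Under quantile normalization, median-ratio scaling or without line 4711-11 it was also called (adjusted p = 0.0378, 0.0312 and 0.0234). The Type D change was -0.54 (adjusted p = 0.442, and 0.00822 with the block). The difference between types in this response was -1.74 (SE 0.56, unadjusted p = 0.00569, adjusted p = 0.944), and with the block it was called (adjusted p = 0.000677). No member was called in this difference without the block, where 0.0284% of all genes were and 1 of 8 members had an unadjusted p under 0.05. In that fit 540 of all genes had an unadjusted p under 0.05. With the block *Abcc5* was the only member called, beside 2.44% of all genes.

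After restoration the types no longer overlapped in *Abcc5*, at 33.8 to 64.3 TPM in Type D and 94.2 to 230 TPM in Type V. The difference of -1.48 (SE 0.40, limma adjusted p = 0.0164) was called, and was lost with the 2 groups fitted alone (adjusted p = 0.0981) or without 4711-1, 4716-11 or 4716-14 (0.143, 0.0631 and 0.054). In Control cells the types overlapped, with means of 71.6 ± 11.4 and 62.8 ± 28.3 TPM (SD, n = 3).

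With CsA in both arms *Abcc5* was higher after restoration in the Type V lines, at 236, 106 and 143 TPM in 4711-11, 4716-10 and 4716-14 against 121, 43.7 and 52.3 TPM (1.22, adjusted p = 0.0679, and 1.68e-05 with the block). In Type D it was at 72.5, 82.4 and 85.8 TPM in 4711-1, 4711-18 and 4716-11 against 80.6, 86.2 and 58.6 TPM (0.11, adjusted p = 0.961). The difference between types was -1.11, called with the block (adjusted p = 0.00888) and not without it (adjusted p = 1). No member was called in this difference without the block, beside 0.0142% of all genes, and none had an unadjusted p under 0.05. In that fit, which leaves the lines unpaired, 430 of all genes did. The types did not overlap in Restored + CsA (-0.93, adjusted p = 0.138, and -1.19 with 0.0438 without 4716-10, but -0.62 without 4711-11). In the difference of responses with the block 2 members were called beside 2.32% of all genes, *Abcc5* and *Abcc3* (-1.14, adjusted p = 0.015).

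*Abcc4*, an exporter of cyclic nucleotides, prostaglandins and nucleotide analogues, was higher after restoration in all 6 lines. In Type D it went from 44.2 to 88.6 TPM in 4711-1, from 68.5 to 268 TPM in 4711-18 and from 44.0 to 92.2 TPM in 4716-11. The Type V lines went from 7.94 to 8.96 TPM in 4711-11, from 41.0 to 166 TPM in 4716-10 and from 17.0 to 46.1 TPM in 4716-14. The ratio was 2.0 to 4.06 in 5 lines and 1.13 in 4711-11.

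For *Abcc4* the mean Type D change of 1.33 (limma adjusted p = 0.44) and the mean Type V change of 1.18 (adjusted p = 0.554, and 0.77 without 4716-10) were both called with the line as a block (adjusted p = 0.00184 and 0.00493). When both arms had CsA the changes were 1.05 and 1.65, called with the block (adjusted p = 0.0102 and 0.000488). With the block, then, 2 of 8 members were called in Type D (*Abcb1b* and *Abcc4*), beside 11.2% of all genes without CsA and 9.69% with it. In Type V 4 of 8 were called (*Abcb1a*, *Abcb1b*, *Abcc4* and *Abcc5*), beside 8.66% without CsA and 7.97% with it.

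*Abcc3*, which exports glucuronide conjugates and bile salts, was the most abundant of the 9 in Type D Control cells, at 207, 242 and 158 TPM in 4711-1, 4711-18 and 4716-11. The Type V lines ranged from 1.77 TPM in 4711-11 through 31.5 TPM in 4716-14 to 149 TPM in 4716-10. The types did not overlap, but 4716-10 came close to Type D, and the difference of 3.07 (SE 1.62, limma adjusted p = 0.231) was not called. Without 4716-10 it was called in Control (4.40, adjusted p = 0.0241), Control + CsA (4.44, adjusted p = 0.021) and Restored (3.92, adjusted p = 0.0392). Without 4711-11, the lowest line, it shrank to 1.52, 1.58 and 0.64 from 3.07, 3.09 and 2.36 in these conditions and was not called. *Abcc4* showed the same order of Type V lines in Control cells and was likewise not called between types (1.46, adjusted p = 0.35). Without 4716-10 *Abcc4* was called in Control + CsA (2.61, adjusted p = 0.0205), Restored (2.60, adjusted p = 0.0214) and Restored + CsA (2.39, adjusted p = 0.0351). Without 4711-11 these differences were 1.31, 0.56 and 0.27, against 1.95, 1.61 and 1.35 with all lines, and were not called.

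*Abcc3* was lower after restoration in all 3 Type D lines, at 131, 166 and 148 TPM in 4711-1, 4711-18 and 4716-11, a mean change of -0.43 (limma adjusted p = 0.945, and 0.0534 with the block). In Type V it was at 1.68, 251 and 35.2 TPM in 4711-11, 4716-10 and 4716-14 (0.29, adjusted p = 0.973). With CsA in both arms it was higher in all 3 Type V lines (0.76) and lower in all 3 Type D lines (-0.38), and neither was called with either fit. With the block the limma adjusted p was 0.0028 in Type V, with a size under the threshold, and 0.0904 in Type D.

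*Abcc1*, which exports glutathione conjugates such as leukotriene C4, was at 50.7 to 83.4 TPM in Type D Control lines and at 49.9 to 87.3 TPM in Type V Control lines. After restoration it was at 136, 121 and 131 TPM in 4711-1, 4711-18 and 4716-11, above every Type D Control library. The Type V values were 42.3, 165 and 132 TPM in 4711-11, 4716-10 and 4716-14, which was lower than Control in the first line and higher in the others. The Type D change was 0.97 (SE 0.43, limma adjusted p = 0.162, and 0.00161 with the block), just under the size threshold, and the Type V change was 0.43 (adjusted p = 0.654).

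CsA itself called none of the 8 tested transporters with limma, with or without the block, in Type D or Type V, with or without restoration, or over the 6 lines together. Among all genes 0% were called by CsA in Type D Control, Type V Control and Type V Restored cells and over the 6 lines, and 0.0142% in Type D Restored cells (up to 0.128% with the block), while 54 to 229 genes had an unadjusted p under 0.05. Those 54 to 229 of 14104 genes are fewer than a share of 0.05, which p-values without any effect would give. The fit without the block keeps differences between lines in its spread, so its p-values say little about a change within lines. No member had an unadjusted p under 0.05 in any of these 6 comparisons without the block, which is therefore not evidence that CsA left them unchanged. With the block 3 members did: *Abcc5* and *Abcc1* in Type D Restored cells and *Abcc3* in Type V Restored cells, besides *Abcc5* over the 6 restored lines. The 54 to 229 genes above are from the fit without the block. All genes were not counted this way with the block, so these 3 members have no background.

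*Abcc5* was the member nearest to a CsA difference. It was higher in Restored + CsA than in Restored in 6 of 6 lines, where 8.71% of all genes had 1 sign, at 72.5 against 33.8 TPM in 4711-1, 82.4 against 64.3 TPM in 4711-18 and 85.8 against 52.3 TPM in 4716-11. The Type D mean difference was 0.71 (95% interval -0.12 to 1.54, adjusted p = 1, and 0.0548 with the block), and all 3 CsA libraries lay above all 3 without it. In Type V it was 0.16 (adjusted p = 1). *Abcc1* was lower with CsA in the 3 restored Type D lines, at 92.6, 83.1 and 101 TPM against 136, 121 and 131 TPM (-0.49, 95% interval -1.38 to 0.41, adjusted p = 0.351 with the block). Without restoration the mean CsA changes over the 6 lines ran from -0.16 (*Abcc4*) to 0.10 (*Abcc5*). For the P-glycoprotein genes they were 0.04 (95% interval -1.05 to 1.14) for *Abcb1a* and -0.04 (-0.57 to 0.49) for *Abcb1b*. The intervals for CsA given here are from the fit without the block, which keeps differences between lines in its spread. In restored Type D cells the SE was 0.40 without and 0.15 with the block for *Abcc5*, and 0.43 and 0.21 for *Abcc1*. Over the 6 lines without restoration it was 0.52 and 0.19 for *Abcb1a*, and 0.25 and 0.15 for *Abcb1b*.

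**Figure D5:**
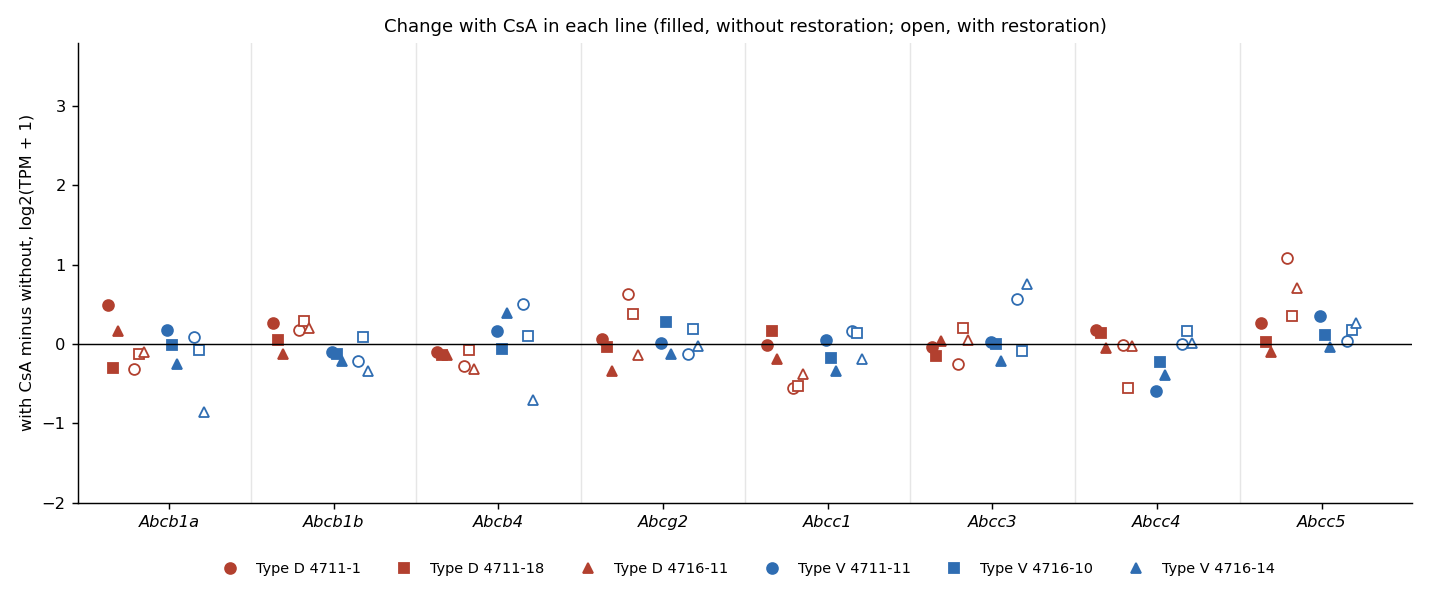
Change with CsA in log2(TPM + 1) (vertical axis, drawn to the same range as the restoration plot) in each line for the 8 tested transporters, filled without restoration and open with it, Type D in red and Type V in blue. Points cluster around 0, and the open red points of *Abcc5* (mean 0.71) and *Abcc1* (mean -0.49) sit farthest from it as a group of 3 lines.

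Summed over the 9 genes, transporter RNA was 538 ± 58.8 TPM in Type D Control and 284 ± 59.2 TPM in Type V Control (SD, n = 3), and 842 ± 164 and 620 ± 135 TPM after restoration. The Control sums of the types did not overlap, at 491 to 604 and 243 to 352 TPM, while the Restored sums did, at 672 to 1000.4 and 539 to 776 TPM. The largest part was *Abcc3* in Type D Control and *Abcb1b* in Type D Restored cells. In each condition 3 or 4 of the 8 tested members had types that did not overlap, beside 29.2 to 31.8% of all tested genes.

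Of 43 other genes of the ABC family 23 were tested, and 4 were called between types in Control cells (17.4%, beside 8.83% of all genes): *Tap2* (-2.96) and *Tap1* (-2.11), which load peptides for antigen presentation, were lower in Type D, and *Cftr* (2.02), a chloride channel, and *Abca3* (1.76), a surfactant lipid transporter, were higher. *Tap1* rose with restoration, by 4.53 in the Type D lines (adjusted p = 2.08e-09 from limma) and by 3.51 in the Type V lines (adjusted p = 5.04e-08). Also in Type D, *Abcb9*, a lysosomal peptide transporter, rose by 2.09 (adjusted p = 0.00623). The median change over the 23 was 0.13 in Type D and 0.25 in Type V, beside 0.07 and 0.05 over all genes.

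Among 20 regulators of drug-handling genes 19 were tested and 4 were called between types in Control cells, 3 higher and 1 lower in Type D (21.1%, beside 8.83% of all genes). *Hnf4a*, a hepatocyte nuclear receptor, was higher by 5.97 (limma adjusted p = 0.00547) and is in the same study-drawn signature as *Abcb1a*. *Nr1h4*, the bile acid receptor, was higher by 2.45, *Pparg* was higher by 1.81 and *Ahr*, the aryl hydrocarbon receptor, was lower by 1.90 on the log2 scale (log2 difference -1.90). *Nr1i2*, the pregnane X receptor, was called in Control + CsA (1.82, adjusted p = 0.026). With restoration *Foxo3* rose in Type V by 1.57 (adjusted p = 0.0191), which made 5.26% of the list beside 5.29% of all genes, and the median over the 19 was 0.15 in Type D and -0.02 in Type V.

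Of 35 conjugation, glutathione and other drug-metabolism genes, not all of which make substrates of the *Abcc* exporters, 34 were tested. Between types in Control cells 7 were higher and 1 lower in Type D (23.5%, median 0.89 beside -0.12 over all genes), led by *Cyp2s1* (4.94) and *Cyp3a13* (3.72) and, lower, *Cyp1b1* (-3.36). *Cyp2s1* and *Cyp1b1* are in the study's own type signatures. With restoration 3 rose in each type, 8.82% of the 34 beside 6.93% (Type D) and 5.29% (Type V) of all genes. *Gclc*, the catalytic subunit of glutathione synthesis, rose by 1.47 in Type D and 1.77 in Type V, and *Gsto1*, a glutathione transferase, by 1.07 and 2.14. *Cyp1a1* rose in Type D (1.88, limma adjusted p = 0.0246) and *Ephx1*, microsomal epoxide hydrolase, in Type V (3.0, adjusted p = 0.00708).

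Of 28 uptake and other drug carriers 17 were tested, and 3 were higher in Type D than Type V Control cells (17.6%, beside 8.83% of all genes): *Slc22a18* (3.32), the copper exporter *Atp7b* (3.08) and the organic anion carrier *Slco3a1* (1.58). With restoration *Slc31a2*, a copper transporter, rose in both types (1.14 and 1.01), and *Slc19a1*, the reduced folate carrier, fell by 1.08 on the log2 scale in Type D (limma adjusted p = 0.0174). Neither fit called a gene of these 4 lists in any of the 6 CsA comparisons.

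Over the 24 libraries the genes whose log2 level followed *Abcb1a* most closely were *Plekha6* (Pearson r = 0.97), *Fam83g* (0.967) and the integrin gene *Itga2* (0.967). Those nearest to *Abcb1b* were *Carhsp1* (0.964), *Ptp4a3* (0.963) and *Arhgap35* (0.958), and those nearest to *Abcc5* were *Zfp963* (0.866), *Slc12a7* (0.864) and *E130311K13Rik* (0.849). These correlations describe libraries that share lines, types and p53 state and carry no test. *Abcb1a* and *Abcb1b*, although neighbours, correlated at 0.43.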

How the data were processed

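Each of 24 polyA-selected, strand-specific RNA libraries was 1 cell line in 1 condition. The authors deposited TPM values per gene. The study's methods name kallisto and HISAT2 (HISAT2 also stands in the submitters' processing notes), and mm10 and GRCm39 are both named as builds, so which of these made the table is not known. Coordinates given are those of GRCm38. No counts were used, so the depth, and the precision it gives, is unknown. All 24 sample columns were used.

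Genes with at least 1 TPM in at least 3 libraries (14104 of 25239) were tested on log2(TPM + 1), which understates changes of low genes, with limma 3.58.1 (trend, R 4.3.3) and a mean for each of 8 groups. The 16 comparisons were called at a two-sided Benjamini-Hochberg adjusted p under 0.05 over all genes tested and an absolute change of at least 1. The fit was run on simulated data with independent libraries and no line effect, for restoration in Type D only. That run cannot show how the fit treats libraries of a line or comparisons between types. The 3 lines of a group are separate tumours, though whether lines that share a first number came from 1 mouse is not given in the sources used here. Comparisons of 2 groups have n = 3 against 3, the CsA effects over 6 lines 6 against 6, and the response differences use 4 groups of 3. Libraries of the same line deviated together (r = 0.599 to 0.929 in 36 pairs, against -0.675 to 0.0438 in 72 pairs of different lines of a type). The cell line was therefore also fitted as a block, except between types, where it cannot be. Between types the main fit counts libraries of a line as independent, and fitting the compared groups alone is the alternative. The other settings tried were 0.1 as pseudocount, testing unfiltered genes, a minimum of 5 TPM, quantile normalization, median-ratio scaling, fitting compared groups alone and leaving out each line.

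All 9 members are named, with at most 4 called genes of largest change per other list and comparison and the 3 genes with the highest Pearson r for each called member. The flanking genes are the protein-coding genes within 250000 bases of the cluster and were added after the values were seen. The members and lists were chosen with earlier results of these data known. Promoters are from RefSeq and transcripts from GENCODE M21, and protein sequences were not analysed here. A few genes of the lists are not reported here. Figures were drawn with matplotlib 3.10.9.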

Additional observations from a re-analysis of the deposited data

Results flagged for a closer look

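*Abcc5* differed between the types in its restoration response, by -1.74 without CsA, where all 3 Type D lines were lower and all 3 Type V lines higher after restoration, and by -1.11 with CsA. Both differences were called only with the cell line as a block (limma adjusted p = 0.000677 and 0.00888). With CsA in both arms *Abcc3* differed by -1.14, lower in the 3 Type D lines and higher in the 3 Type V lines, and was called with the block (adjusted p = 0.015). *Abcb1a* showed the same split with CsA, a difference of -1.22, which did not pass with the block (adjusted p = 0.0817). For CsA in restored cells *Abcc4* was lower in all 3 Type D lines and higher in all 3 Type V lines, a difference of -0.26 that was not tested. It came from 4711-18 (-0.56) and 4716-10 (0.17), and the other lines changed by only -0.02 to 0.02.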

How the results depend on the processing

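Among member changes called under at least 1 setting none reversed, and of 375 recomputed values 332 stayed on their side of the thresholds, 30 passed only under the alternative and 13 were lost. Of the 98 member changes called under no setting, 0 to 11 changed sign under each alternative (81 such changes with the block). With the cell line as a replicate block the number of members called went from 1 to 2 in Type D and from 1 to 4 in Type V restoration, with and without CsA, and from 0 to 1 (no CsA) and 2 (with CsA) in the difference between types, while all-gene calls were 1582, 1222, 1366, 1124, 344 and 327 in these 6 comparisons against 977, 746, 763, 650, 4 and 2. The block changed no call of a member in the CsA comparisons. Between types in Control + CsA 2 members were called under a pseudocount of 0.1, a minimum of 5 TPM, quantile normalization and median-ratio scaling. With the compared groups fitted alone 0 members were called in Restored and 1 in Restored + CsA, with 631, 649, 490 and 598 genes called between types against 1246, 1393, 1331 and 1103, and 291 and 276 in Type V restoration. In Type V restoration 2 members were called under quantile normalization and median-ratio scaling, with and without CsA. Leaving out 1 line gave 1 to 2 members called between types in Control, 1 to 3 in Control + CsA, 0 to 4 in Restored and 0 to 4 in Restored + CsA, and 1 to 2 in Type V restoration with and without CsA. The highest counts between types came without 4716-10, and in Type V restoration without 4711-11. For the left-out lines, pseudocount, minimum TPM and scalings the all-gene counts are not given here. Whether these member counts differ from all genes can therefore not be read from them. The median of all genes between types in Control was -0.12, and -0.02 under median-ratio scaling. The share of all-gene calls that were higher after restoration in Type D was 64.8%, and 54.2% under quantile normalization (with CsA 65.3% and 53.5%). The causes were not tested. Low values limit *Abcc2*, *Abcb4* and Type V *Abcb1a*.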
